A study of Mus musculus with 27 samples.

Results

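The genes described here are the olfactory receptors whose array symbols run from Olfr826 to Olfr985, a block of class II odor receptors that lies mainly on mouse chromosome 9. A gene was included when its symbol on the array was Olfr with a number in that range. This gave 72 genes of 689 olfactory receptors and of 16675 named genes on the array, each with a single probe. Expression was measured by single-colour array in olfactory mucosa of female FVB strain mice at 25 days of age. In the treated mice 1 naris was closed by cautery, and mucosa behind the closed and behind the open naris was sampled, in the same individuals. Normal mucosa came from other mice; the treatment text gives sham cautery as the alternative to occlusion, whereas the design text calls this group untreated. Each of the 3 groups had 3 biological replicates with 3 arrays (a to c) each, 27 arrays in all. The labels do not say whether a replicate was 1 mouse or a pool, or how long the naris had been closed.

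Olfactory receptors are G protein-coupled receptors in the cilia of olfactory sensory neurons. Each neuron expresses a single receptor gene, so the signal of a receptor in whole mucosa depends on how many neurons use it and on how much messenger RNA each of them holds; in bulk tissue these cannot be told apart. Receptor genes sit in clusters, and the choice of a receptor involves upstream sequences bound by homeodomain factors such as Lhx2 and by Ebf factors. Bound odors raise cAMP through the G protein of Gnal and the cyclase of Adcy3. Class II receptors are the large group found in land vertebrates.

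Of the 72 receptors, 70 were placed on chromosome 9 by a RefSeq gene table (assembly GRCm38.p6), so the chromosome in the working name holds for nearly all of them. The other 2, Olfr826 and Olfr827 of the MOR210 family, are on chromosome 10. On chromosome 9 the receptors form a first cluster of 19, from Olfr828 to Olfr868, and a second cluster of 51, from Olfr874 to Olfr985. The 72 receptors belong to 24 MOR families, into which mouse receptors are sorted by sequence likeness. The largest were MOR171 with 14 receptors here, MOR165 with 7 and MOR224 with 6. The gene table names 2 of the receptors differently: Olfr909 is a synonym of Olfr911-ps1, and Olfr973 a synonym of Olfr229. Array symbols are kept below.

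Upstream sequences are shown for the 3 receptors whose occluded values lay above all normal values, with no overlap of the groups. They are the 250 bases before the RefSeq transcript start in GRCm38.p6, on the plus strand, at chr9:38523480-38523729 for Olfr909, chr9:38579994-38580243 for Olfr912 and chr9:39166060-39166309 for Olfr943. The assembly is from another strain than FVB. Capitals mark a match to the homeodomain core variant TAATTG or its reverse complement.
Olfr909: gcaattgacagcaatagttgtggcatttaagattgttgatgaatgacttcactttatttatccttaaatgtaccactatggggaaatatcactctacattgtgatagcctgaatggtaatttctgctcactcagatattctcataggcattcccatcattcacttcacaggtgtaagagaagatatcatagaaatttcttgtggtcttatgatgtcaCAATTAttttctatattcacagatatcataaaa
Olfr912: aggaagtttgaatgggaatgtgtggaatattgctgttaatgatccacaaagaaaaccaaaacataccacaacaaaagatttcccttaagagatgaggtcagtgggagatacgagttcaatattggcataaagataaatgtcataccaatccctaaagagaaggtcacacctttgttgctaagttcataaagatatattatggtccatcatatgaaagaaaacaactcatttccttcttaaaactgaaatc
Olfr943: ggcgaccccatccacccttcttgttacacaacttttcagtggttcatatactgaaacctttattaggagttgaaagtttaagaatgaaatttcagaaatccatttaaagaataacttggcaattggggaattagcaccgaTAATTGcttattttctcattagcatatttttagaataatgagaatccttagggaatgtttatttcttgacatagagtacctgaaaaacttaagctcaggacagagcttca

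Promoter windows of 300 bases (250 before and 50 after the start) could be matched for 62 of the 72 receptors, 63 windows in all. For 38 of these windows the transcript start is itself a start codon, so the gene model has no leader and the window need not be the promoter. Among the 25 remaining windows, searched on both strands, 6 (24.0%) held the homeodomain core TAATTA, which reads the same on both strands, and 9 (36.0%) held TAATTG. Of 235 windows of other olfactory receptors chosen the same way, 17.9% held TAATTA and 26.4% held TAATTG. The other receptors here are all RefSeq Olfr genes outside the 72, whether or not they are on the array. RefSeq holds 112 genes numbered Olfr826 to Olfr985, so genes of this range without a probe can be among them. Of all 30936 windows in the table that do not begin at a start codon, 4.88% and 7.62% did. The TATA box TATAAA, searched in the same way, was in 44.0% of the 25, 33.6% of the other receptor windows and 12.6% of all. The part of base composition in these shares was not tested. The palindromic Ebf (O/E) site was in 0 of the 25, in 0.851% of the other receptor windows and in 0.915% of all. The motifs TAATTA and TAATTG can overlap in sequence. A match is a description of the letters, not of binding.

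The signal of most of these receptors was modest. A probe is counted as measured here when it lay above the noise limit of an array, defined as 3 times the root mean square of the values below 0, on at least 14 of the 27 arrays. This held for 59 of the 72 receptors (81.9%), and 43 (59.7%) were above the limit on all 27 arrays. The same shares were 88.7% and 74.4% of the other olfactory receptors on the array, and 86.5% and 71.6% of all probes. Of the 13 receptors here that were not measured, 12 were above the limit on some arrays and Olfr849 on none. The first cluster had 14 measured of 19 and the second 45 of 51. None of the 72 was saturated on any array. Between 53 and 66 of the 72 lay above the limit on an array (median 59), where the noise limit was 11.6 to 24.1 and the array median 123 to 274 intensity units. Probes bind differently, so the brightness of a probe is not compared between receptors as a level of RNA.

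The second cluster, with 51 of 72 receptors and 45 of 59 measured, held all 10 with the highest probe signal in normal mucosa. They were Olfr969, Olfr875, Olfr914, Olfr912, Olfr974, Olfr934, Olfr983, Olfr972, Olfr902 and Olfr910, with mean log2 intensity between 10.55 for Olfr969 and 8.98 for Olfr910. Olfr914 was among the steadiest, with 9.92 ± 0.10 (SD, n = 3) in normal mucosa, a mean of 9.88 on the open side and 9.75 on the occluded side. Olfr875 had means of 10.13, 10.20 and 10.19 in the same order. The 5 dimmest were Olfr877, Olfr894, Olfr935, Olfr827 and Olfr853, each above the noise limit on 1 to 3 of 27 arrays. No fold is given for these 5. The plot of mean signal shows that the 3 groups lay close together for most receptors.

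**Figure D1:**
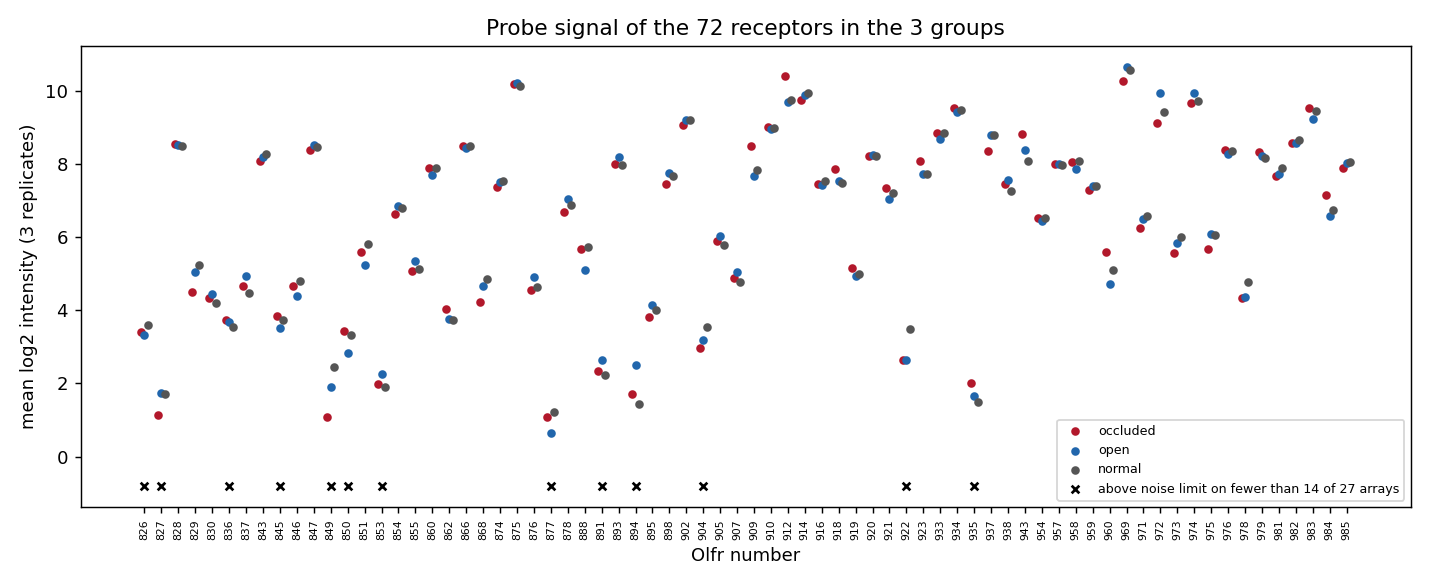
Mean log2 intensity (vertical axis) of the 3 replicates in occluded, open and normal mucosa for each of the 72 receptors in order of Olfr number (horizontal axis); crosses mark the 13 receptors above the noise limit on fewer than 14 of 27 arrays. The points of the 3 groups lie close to each other for most receptors, and Olfr912 stands higher on the occluded side (10.41) than in open (9.68) or normal mucosa (9.74).

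The first comparison asked how the receptors differed between the occluded and the open side of the same mice. No receptor of the 72 passed an adjusted p of 0.05 in limma, where 0.221% of all 29922 probes did. Of all probes, 0.177% passed as higher and 0.0434% as lower. An unadjusted p under 0.05 was found for 6 receptors, 5 with higher and 1 with lower occluded values, against 6.19% of all probes (3.56% higher and 2.63% lower). That count of 6 was 14 without open replicate 3, 12 without replicate 3 on both sides and 11 without occluded replicate 3. It was 2 without replicate 1 on both sides, without occluded replicate 1 and without normalization. The count over all 29922 probes, 1852 in the main fit, moved the same way. It was 2778, 2692 and 2635 in the first 3 of these settings and 761, 708 and 714 in the last 3. The groups did not overlap for 5 receptors higher and 4 lower (background 3.76% and 2.94% of all probes). The median log2 difference was -0.01 over the 72, with 31 above 0 and 41 below, and 0.0042 over all probes, of which 50.7% lay above 0. A difference over 0.5 in size was found for 11 of the 72 and for 12.7% of all probes. For 51 of the 72 the 95% confidence interval, not adjusted for the number of receptors, lay within a log2 difference of 1 in both directions; for 21 it reached beyond.

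Olfr912, of the MOR165 family, had the smallest p among those higher on the occluded side. Its log2 intensity in replicates 1 to 3 was 10.16, 10.52 and 10.54 on the occluded side, 9.997, 9.70 and 9.33 on the open side and 9.86, 9.79 and 9.57 in normal mucosa. All 3 occluded values were above all 6 others. The difference from the open side was 0.73 ± 0.20 (SE; 95% interval 0.28 to 1.17), with a limma adjusted p of 0.38. The deposited intensities of its 9 occluded arrays ran from 913 to 1919 with a median of 1372, those of its 9 open arrays from 692 to 1041 with a median of 888. Over the alternative settings the difference stayed between 0.49 and 1.01 and did not pass.

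Olfr909, of the same family and in the same stretch of the second cluster, was at 8.63, 8.09 and 8.73 on the occluded side, 7.27, 8.08 and 7.63 on the open side and 7.72, 7.78 and 7.96 in normal mucosa. Its groups were separate, but in pair 2 the sides differed by only 0.01. The difference was 0.82 ± 0.24 (limma adjusted p = 0.45). Without open replicate 2 the fitted difference was 1.15 with a limma adjusted p of 0.0502. That fit still held occluded replicate 2 as the same individual, and the plain difference of the means was smaller. Olfr910, which lies between Olfr909 and Olfr912 on the chromosome, differed by 0.05 ± 0.17 (limma adjusted p = 0.9997). The MOR165 family as a whole had a median difference of 0.05, with 4 of 7 above 0.

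Olfr984 and Olfr888 also had occluded values above all open values. Olfr984, of MOR239, was at 7.003, 7.47 and 6.93 on the occluded side and 6.71, 6.52 and 6.498 on the open side, a difference of 0.56 ± 0.18 (limma adjusted p = 0.55). Olfr888, of MOR162, was at 5.85, 5.58 and 5.62 against 4.96, 4.95 and 5.40 (0.58 ± 0.19, adjusted p = 0.57). In normal mucosa Olfr888 was at 6.06, 5.35 and 5.75, and the open side was the lowest group by mean. Olfr921 was the fifth receptor with separate groups (0.29 ± 0.16). Olfr960 (0.86 ± 0.37, adjusted p = 0.80) and Olfr943 (0.45 ± 0.24, adjusted p = 0.90) were higher on the occluded side in all 3 pairs, although their groups overlapped.

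Olfr972, of the MOR171 family, had the smallest p of all 72 and lay lower on the occluded side. Its log2 intensity was 8.74, 9.58 and 9.06 on the occluded side, 9.62, 10.22 and 10.005 on the open side and 9.80, 9.23 and 9.19 in normal mucosa. The occluded values were below the open values with no overlap, and the pair differences were -0.88, -0.64 and -0.94. The difference was -0.82 ± 0.21 (95% interval -1.30 to -0.34, limma adjusted p = 0.33). The alternative settings gave values between -1.03 and -0.58. Olfr898 (-0.30 ± 0.14, adjusted p = 0.85) and Olfr974 (-0.28 ± 0.17, adjusted p = 0.94) were lower in all 3 pairs with separate groups. Olfr829 (-0.53 ± 0.30), Olfr878 (-0.36 ± 0.22) and Olfr876 (-0.36 ± 0.23) completed the 6 measured receptors with the smallest p in this direction, with overlapping groups. Olfr891 had separate groups too, but lay above the noise limit on 5 of 27 arrays only.

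**Figure D2:**
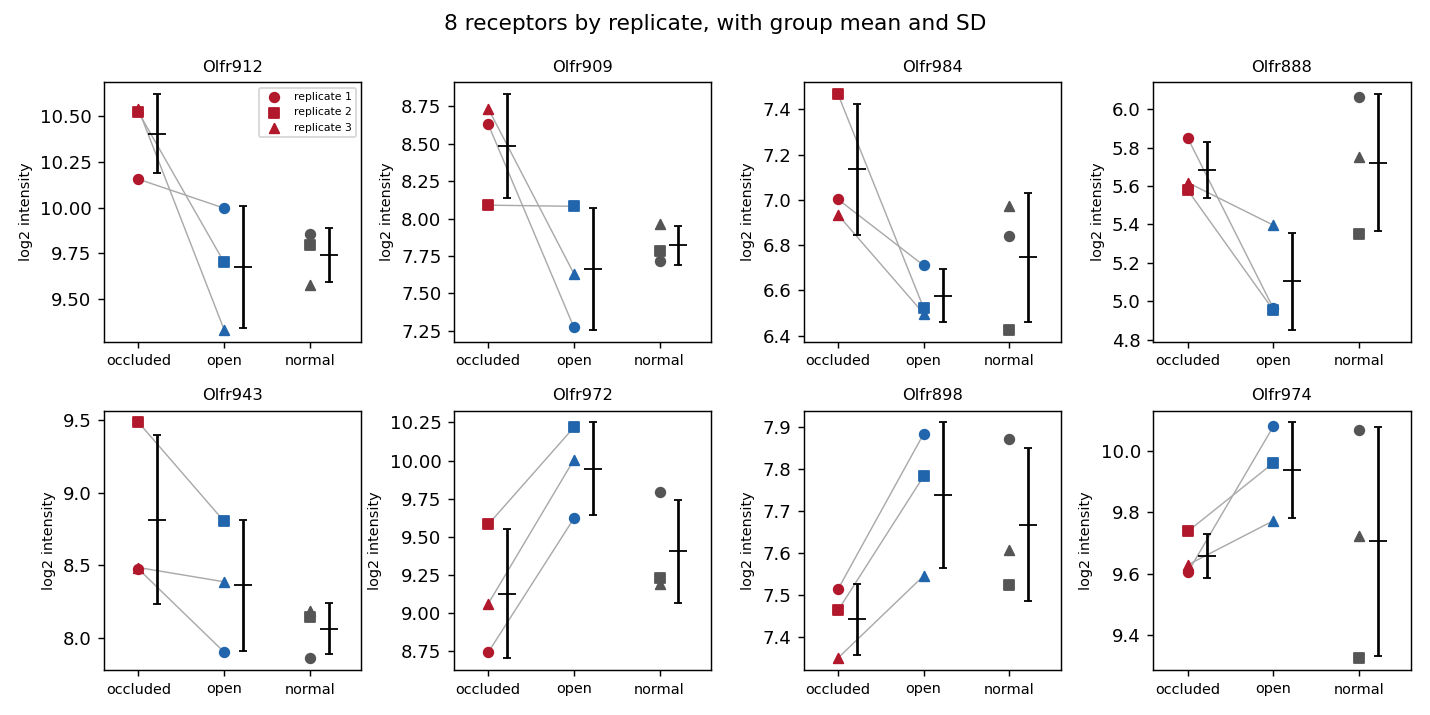
Log2 intensity (vertical axis) of 8 receptors in each replicate of the occluded, open and normal groups; grey lines join the sides read as 1 individual, and black marks with bars give the group mean and SD of 3 replicates. Olfr912 and Olfr909 have all occluded values above all others, whereas the occluded values of Olfr972, Olfr898 and Olfr974 lie below the open ones.

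Among the 6 families with at least 4 receptors here, the signs were mixed in 5. All 5 receptors of MOR170, Olfr891, Olfr893, Olfr894, Olfr895 and Olfr898, lay below 0 in occluded against open, with a median of -0.30. Of these, Olfr891 and Olfr894 were not measured on 14 arrays, and Olfr895 was on exactly 14. Against normal mucosa the median of MOR170 was 0.02 for the occluded side, with 3 of 5 above 0. For the open side it was 0.22, with 5 of 5 above 0. In MOR171 the median was -0.11, with 5 of 14 above 0, among them Olfr943. MOR161 had a median of -0.01 (1 of 5 above 0), MOR223 -0.0077 (1 of 4) and MOR224 0.11 (4 of 6). The first cluster had a median of -0.10 with 9 of 19 above 0 and no receptor with separate groups. The second had a median of -0.01 with 21 of 51 above 0 and held all 9 receptors with separate groups, among them the dim Olfr891. Of all probes, 3.76% had separate groups as higher and 2.94% as lower. At these shares few would be found among the 19 of the first cluster, of which 14 were measured. In the second cluster 5 of 51 had separate groups as higher and 4 as lower. The difference between clusters was not tested. Along the chromosome, receptors with positive and negative differences were interspersed, as the plot in chromosome order shows.

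**Figure D3:**
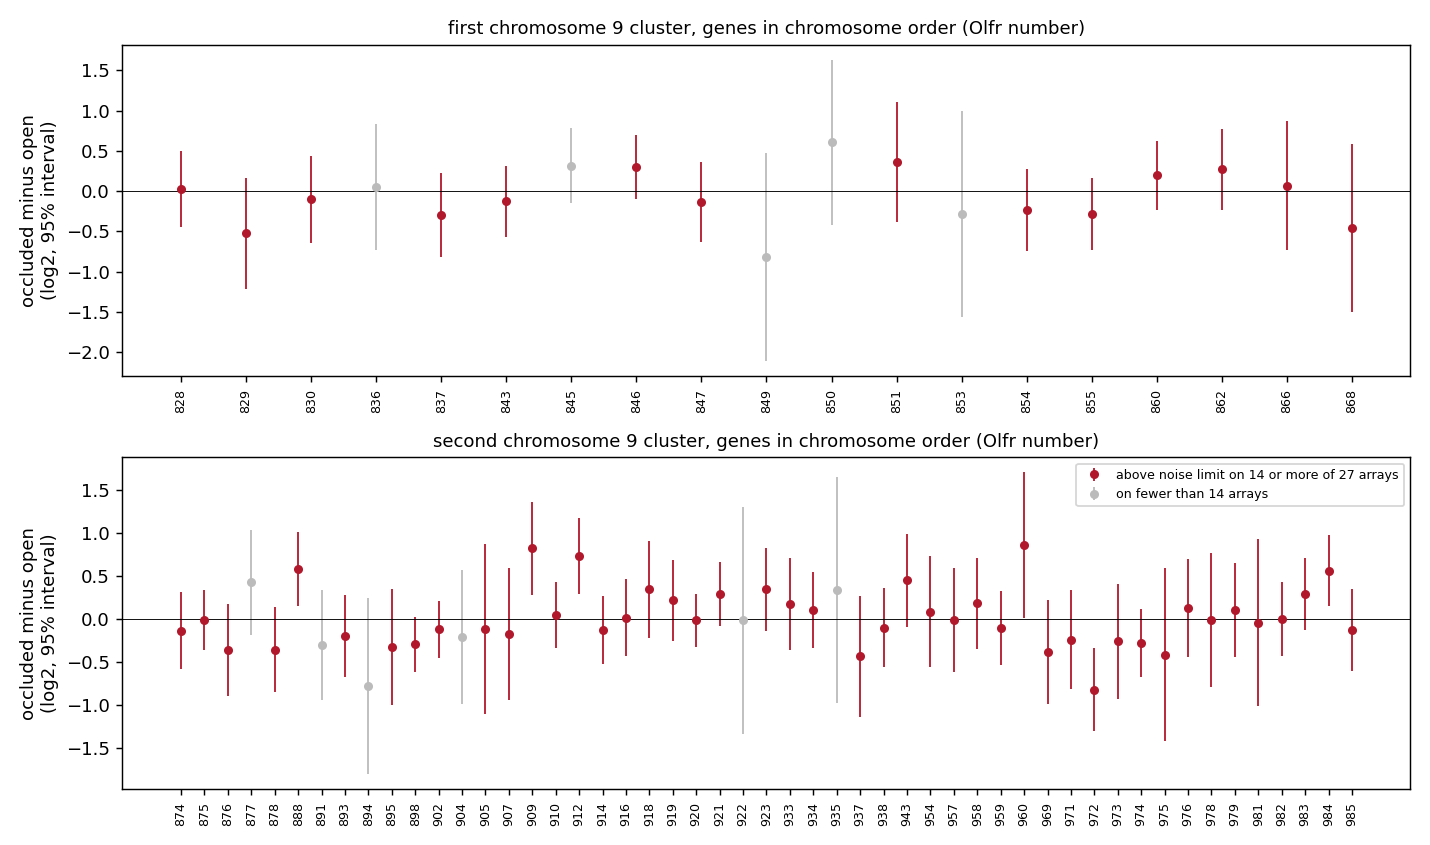
Log2 difference of occluded minus open (vertical axis) with its 95% confidence interval for the 19 receptors of the first and the 51 of the second chromosome 9 cluster, in chromosome order (horizontal axis); grey points are receptors above the noise limit on fewer than 14 arrays. Differences of both signs stand next to each other, with Olfr909 and Olfr912 high and Olfr972 low.

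The other 617 olfactory receptors on the array lay higher on the occluded side more often. Their median difference was 0.13, with 65.5% above 0, against -0.01 and 43.1% for the 72. By pair, the median over the 72 was -0.11, -0.08 and 0.18, and over the others 0.06, -0.0016 and 0.31. The others were higher than the 72 in each of the 3 pairs. Pair 3 alone gave a positive median for the 72, with 48 of 72 above 0. The median of the 72 was -0.10 without normalization, -0.05 with median centring and 0.02 with the median of the 3 arrays, which turns its sign, while that of the others was 0.08, 0.13 and 0.13. The difference between the 2 sets of receptors was not tested.

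**Figure D4:**
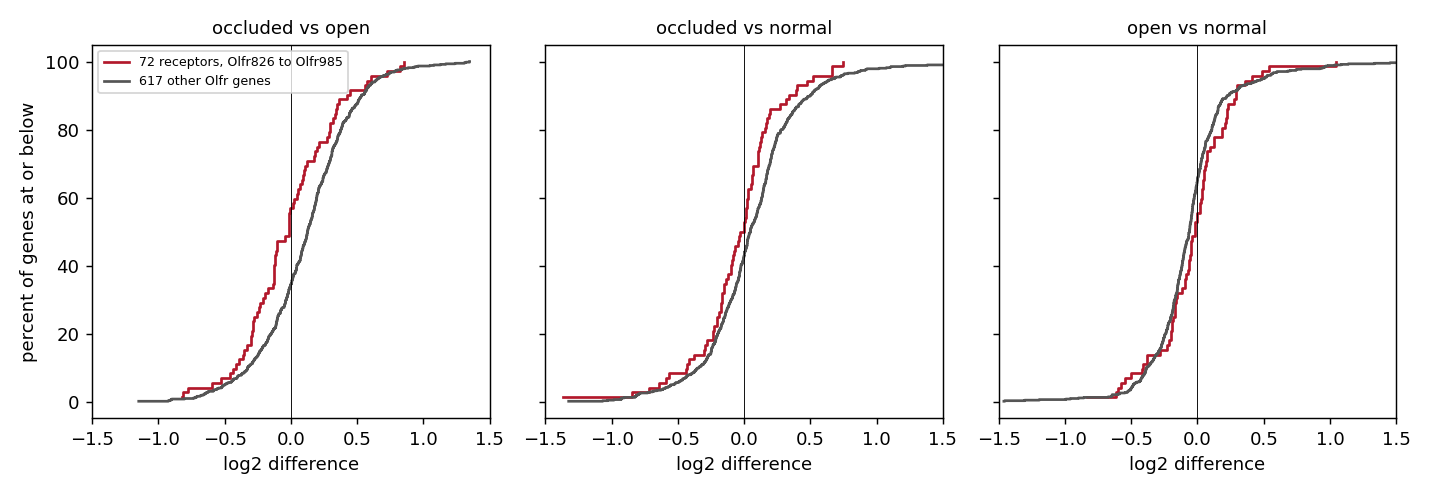
Cumulative share of genes (vertical axis, percent) at or below each log2 difference (horizontal axis) for the 72 receptors and for the 617 other olfactory receptors in the 3 comparisons. In occluded against open the curve of the 72 crosses 0 above that of the others, with 43.1% and 65.5% of genes above 0.

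Normal mucosa of other mice served as the reference in the second comparison, with the occluded side. No receptor passed in limma, where 0.00668% of all probes did, and 2 of the 72 had an unadjusted p under 0.05, against 2.88% of all probes (1.62% higher and 1.25% lower). Both were higher on the occluded side. A log2 difference over 0.5 in size was found for 10 of the 72, against 12.4% of all probes. The median was -0.02, with 35 above 0 and 37 below, against 0.0063 over all probes, of which 51.0% lay above 0. Over the other receptors it was 0.05, with 57.1% above 0. The groups did not overlap for 3 receptors higher, Olfr909, Olfr912 and Olfr943, and for 1 lower, Olfr898 (background 3.57% and 3.09% of all probes). The occluded arrays are the same as in the first comparison, so these values are not a second measurement of the occluded side.

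Olfr912 was higher than in normal mucosa by 0.66 ± 0.25 (95% interval 0.09 to 1.23, limma adjusted p = 0.99999). Olfr943, a MOR171 receptor, was at 8.48, 9.48 and 8.49 on the occluded side, 7.91, 8.80 and 8.39 on the open side and 7.86, 8.15 and 8.19 in normal mucosa. Its difference from normal was 0.75 ± 0.30 (limma adjusted p = 0.99999). Occluded replicate 2 held the highest value, and without that replicate the fitted difference was 0.55. That fit still held open replicate 2 as the same individual, which moves the estimate. The remaining occluded values, 8.48 and 8.49, lay closer than 0.55 to the normal mean of 8.07. Olfr909 differed by 0.66 ± 0.30, Olfr984 by 0.39 ± 0.23, Olfr918 by 0.40 ± 0.32 and Olfr923 by 0.34 ± 0.27. Lower on the occluded side were Olfr829 (-0.72 ± 0.39), Olfr898 (-0.23 ± 0.18), Olfr973 (-0.43 ± 0.38), Olfr937 (-0.44 ± 0.40), Olfr868 (-0.65 ± 0.59) and Olfr972 (-0.28 ± 0.27), the 6 measured receptors with the smallest p in that direction. Their intervals all include 0.

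The third comparison asked whether the open side of occluded mice differed from normal mucosa. No receptor of the 72 passed in limma, where 0% of all probes did, and 1 had an unadjusted p under 0.05, against 1.59% of all probes (0.789% higher and 0.805% lower). The groups did not overlap for 2 receptors higher and 0 lower, against 2.06% and 2.21% of all probes. A difference over 0.5 in size was found for 8 of the 72 and for 10.1% of all probes. The receptor with the unadjusted p under 0.05 was Olfr888, lower on the open side by -0.62 ± 0.24 (95% interval -1.17 to -0.06, limma adjusted p = 0.999995). The median over the 72 was -0.02, with 32 above 0 (49.1% of all probes), and -0.06 over the other receptors, of which 34.8% lay above 0. Without normalization between arrays both medians turned positive, to 0.08 and 0.03, where the median of all probes was 0.10.

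Olfr972 lay higher on the open side than in normal mucosa by 0.54 ± 0.27 (limma adjusted p = 0.999995), with overlapping groups. Olfr837, at 5.02, 4.87 and 4.96 on the open side and 4.35, 4.85 and 4.18 in normal mucosa, had separate groups and differed by 0.49 ± 0.29. Olfr894 also had separate groups but was above the noise limit on 2 of 27 arrays. Further measured receptors with small p were Olfr938 (0.29 ± 0.26), Olfr974 (0.23 ± 0.22), Olfr943 (0.30 ± 0.30) and Olfr876 (0.29 ± 0.30) on the higher side. On the lower side they were Olfr846 (-0.42 ± 0.22), Olfr851 (-0.60 ± 0.42), Olfr983 (-0.23 ± 0.24), Olfr978 (-0.41 ± 0.44) and Olfr860 (-0.20 ± 0.24). Olfr888 alone among the 72 had an interval that did not include 0 in this comparison. The 3 comparisons share samples by pairs, so their values are given side by side and not as independent evidence.

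The spread between replicates was of the same order as these differences. The median SD between replicates of a group was 0.38 over the 72 receptors and 0.38 over the others, and that between arrays of 1 replicate was 0.35 and 0.33. Olfr920 and Olfr898 were the steadiest measured receptors, with SDs of 0.12 and 0.15 between replicates, and Olfr868 the most variable with 0.88. Single replicates moved many receptors together. Normal replicate 1 lay above the gene's own mean of 9 for 59 of 72 receptors, with a median deviation of 0.29, and open replicate 3 lay above it for only 18, with a median of -0.26. The other olfactory receptors deviated the same way in these replicates, by 0.13 and -0.25. All named genes deviated by 0.04 and -0.02, but quantile normalization holds a median over so many genes near 0. The part of these replicates in the results above was not tested beyond leaving each of them out. Without open replicate 3 the median of occluded against open was -0.11 with 25 of 72 above 0. Without normal replicate 1 the median of occluded against normal was 0.10 with 48 of 72 above 0, and that of open against normal was 0.12 with 45 above 0.

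**Figure D5:**
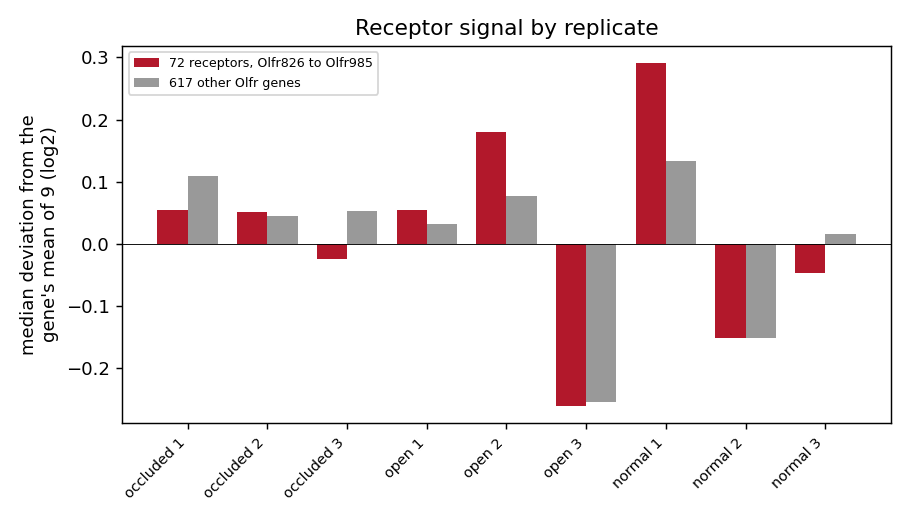
Median deviation from the gene's own mean of 9 replicate values (vertical axis, log2) in each replicate (horizontal axis), as bars for the 72 receptors and the 617 other olfactory receptors. Normal replicate 1 is the highest (0.29 for the 72) and open replicate 3 the lowest (-0.26), in both sets.

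Some receptors followed each other closely across the 9 replicate values. Olfr976 and Olfr979, which lie in the second cluster and belong to MOR224 and MOR223, had a correlation of 0.98, and their log2 values differed by -0.04 to 0.19 in every replicate. Olfr918 and Olfr923, both of MOR164, had a correlation of 0.94, and Olfr973 and Olfr981 of 0.94. These pairs were picked for their likeness among all pairs of the 59 measured receptors, and all come from the same 9 samples. Neighbours are taken here as measured receptors next to each other in chromosome order within a cluster. Genes without a probe and receptors not measured were skipped, so neighbours need not be adjacent genes. Neighbours had a median correlation of 0.24 over 57 pairs. Other receptors of the same cluster had 0.23 over 1024 pairs and receptors of different clusters 0.18 over 630 pairs. Pairs within a MOR family had a median of 0.31 over 136 pairs, against 0.21 over 1575 pairs of different families. Related receptors can share probe targets, and probe sequences were not used here, so each value is uncertain as to which receptor it reads.

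Genes that receptors need for their choice, transport and signalling were given by a list of 30, of which 27 were found on the array. None passed in any of the 3 comparisons in limma. At an unadjusted p under 0.05 in occluded against open, 6 lay higher and 0 lower, where 3.56% and 2.63% of all probes did. In occluded against normal 1 lay higher and 0 lower (1.62% and 1.25% of all probes), and in open against normal 0 lay higher and 0 lower (0.789% and 0.805%). The medians were 0.07, 0.18 and -0.05, with 17, 17 and 12 of 27 above 0. Of the 27, 3 were saturated on some arrays, among them Omp and Cnga2. Omp, Gnal, Adcy3 and Cnga2 are also among the mature neuron markers below, so the 2 lists are not separate observations. Ric8b, which encodes a chaperone of the olfactory G protein, was at 14.42, 14.92 and 14.86 on the occluded side and 13.99, 13.30 and 14.32 on the open side (0.86 ± 0.24, limma adjusted p = 0.41). The phosphodiesterase gene Pde4a (0.72 ± 0.20), the exchanger gene Slc24a4 (0.55 ± 0.17) and the channel gene Cnga2 (0.53 ± 0.17) followed. The G protein gene Gnal had the smallest p against normal (0.75 ± 0.24, limma adjusted p = 0.99999), ahead of Cngb1 (0.49 ± 0.23), Slc24a4 (0.43 ± 0.22) and Pde4a (0.50 ± 0.26). In open against normal the smallest p-values were those of Ebf4 (-0.40 ± 0.20), Eif2ak3 (0.38 ± 0.21), Ric8b (-0.49 ± 0.30) and Emx2 (0.40 ± 0.26).

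The tissue carried the defining markers of olfactory mucosa. Omp, which marks mature olfactory neurons, was at the top of the scale on 26 of 27 arrays, so it gives no fold. Of the 8 listed markers of mature neurons, 5 were found on the array, and all 5 lay above 0 in occluded against open. Their summed log2 level was 17.61 to 17.69 on the occluded side, 17.32 to 17.37 on the open side and 17.37 to 17.49 in normal mucosa. That sum holds the saturated Omp probe and Cnga2, which was saturated on 3 arrays, so it is not a measure of the size of a difference. The 3 markers saturated on no array differed by 0.47 (Gnal), 0.34 (Adcy3) and 0.47 (Stoml3) in occluded against open, with limma adjusted p-values of 0.76, 0.71 and 0.76. Of all 5 mature neuron markers, saturated ones included, 4 lay higher at an unadjusted p under 0.05 in limma and 0 lower. Of all probes, 3.56% and 2.63% did. The 72 receptors had a median of -0.01 in that comparison. The summed level of 5 immature neuron markers was 14.78 to 15.04, 15.05 to 15.13 and 14.92 to 15.36, and that of 3 sustentacular cell markers, of which Cbr2 was saturated on 27 of 27 arrays, 16.18 to 16.46, 16.16 to 16.50 and 16.27 to 16.36. Markers of horizontal basal cells (Krt5, Krt14 and Trp63) all lay below 0 in occluded against open, with a median of -0.32, and Krt14 had an unadjusted p under 0.05 in limma. Of the 3 Bowman's gland markers, Bpifb3 was saturated on 21 arrays and Obp2a on 12, and Sox9, saturated on none, was at -0.15. Of 4 respiratory epithelium markers, 2 lay below 0 (median -0.08), and Bpifa1 was saturated on 12 arrays. The vomeronasal neuron gene Trpc2 lay higher on the occluded side by 0.84 ± 0.17 (limma adjusted p = 0.16), while Vmn2r1 was above the noise limit on 1 array. The median was -0.43 for blood (Ptprc alone), -0.03 for 3 skeletal muscle markers, 0.04 for 2 of bone and cartilage and 0.03 for 3 of olfactory bulb or brain. None of these markers passed in limma. The part of cell makeup in the receptor values was not tested.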

How the data were processed

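RNA from the mucosa was amplified by in vitro transcription and coupled to Cy5, per the labels' protocols. The values are probe intensity on a linear scale as deposited by the authors; from the values, background had been subtracted. For scanner, background method and normalization, the sources used here give no statement. Values at or below 0 were set to 0.912, log2 was taken, quantile normalization was applied between arrays, and each replicate is the mean of its 3 arrays. limma 3.58.1 in R 4.3.3 fitted 3 groups over all 29922 probes, with individuals as random blocks (estimated correlation 0.389), two-sided, with Benjamini-Hochberg adjustment over all probes and a threshold of 0.05. The design text states that both sides come from the same individuals; equal replicate numbers were read as 1 individual. Deviations from the group means of both sides correlated at 0.52, -0.0044 and 0.14 over all probes in the 3 pairs. With normal mucosa of equal number, from other mice, the occluded side correlated at 0.35, 0.07 and 0.0015. For the open side these values were 0.39, 0.10 and 0.07. Likeness by replicate number thus also appeared between different mice, and the values do not settle the reading as 1 individual. p-values measure the spread between the replicates as labelled. The script was tested on simulated data. All probes were tested, dim ones included.

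Gene names came from an array annotation table that pairs 21020 probes with 1 symbol each; 8902 probes are unnamed here. Upstream sequences came from RefSeq (GRCm38.p6). Receptors named in each comparison were, among those above the noise limit on at least 14 arrays, the 6 with the smallest p in each direction; the 10 brightest and 5 dimmest probes in normal mucosa were added. From the pathway list, the 4 smallest p-values in each comparison were named. Olfr891, Olfr893, Olfr894, Olfr895, Olfr910, Olfr920 and Olfr921, Olfr849 and the most alike pairs were named after their values were seen. The genes and lists were chosen with earlier results of these data known.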

Additional observations from a re-analysis of the deposited data

How the results depend on the processing

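No receptor and no gene of the pathway list passed in limma under any of the alternatives run: 22, 18 and 18 settings for the receptors in occluded against open, occluded against normal and open against normal, and 20, 16 and 16 for the pathway list. The smallest adjusted p of a receptor was 0.0502, for Olfr909 without open replicate 2. The median difference of the 72 receptors ranged from -0.12 to 0.02, from -0.12 to 0.10 and from -0.17 to 0.12 in the 3 comparisons. It kept its sign in 18 of 22, 14 of 18 and 15 of 18 settings. Settings that change only the block, the priors, the groups in the fit or the averaging of probes cannot move it. They leave the group means as they are, and each receptor has a single probe. These sign counts therefore include outcomes fixed in advance. Each move of the median was smaller than the SD between single pairs or single replicates (0.16, 0.24 and 0.32). Leaving out 1 of 3 replicates can hardly exceed that SD, so this does not show that the median is stable. Of 684 values of named receptors, 682 kept their direction and side of the threshold. Their direction could not turn where only the block, the priors, the groups in the fit or the probes averaged or tested were changed. Both exceptions turned direction in open against normal, and the cause was not tested. Olfr860 was at 0.041 without normal replicate 1, in a range of -0.33 to 0.041 when single replicates were left out. Olfr876 was at -0.0043 without normal replicate 2, in a range of -0.0043 to 0.50. The replicate block changed no call of a receptor: with the pair as a fixed block on both sides alone the smallest adjusted p was 0.65, with the number as a fixed block 0.82 and with no block 0.99. The number of all probes called in occluded against open was 66, but 0, 2 and 3 in these fits. It was 0 without normalization, 37 with median centring, 89 with an offset of 50, 87 without the dimmest 30% of probes, 14 with the groups compared alone and 102 with trend and robust priors, and 0 to 123 when single replicates were left out. In occluded against normal it was 2, and 0 to 26 over the alternatives. The number of receptors with an unadjusted p under 0.05 in occluded against open was 6, with 1852 of 29922 probes. It was 14 with 2778 probes without open replicate 3, and 2 with 761 probes without replicate 1. The restriction to receptors measured on at least 14 arrays was chosen after seeing the data. Signal limits these results: 13 of 72 receptors were mostly below the noise limit, and 3 replicates per group leave wide intervals.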
